A study of Mus musculus with 2 samples.

Results

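The Dlk1, Meg3 and Dio3 imprinted domain was taken as the listed cytosines of mouse chromosome 12 from 110680001 to 111530001 (mm9, 1-based), a stretch of 850 kb chosen by position and not by any measured value. It held 8399 of the 13025343 cytosines listed for the whole genome. The 6 members named for it were the protein-coding genes Dlk1, Rtl1 and Dio3 and the noncoding RNA genes Meg3, Rian and Mirg. The intervals given for Dlk1, for the intergenic control region and for Meg3 were approximate, and Dio3 was given as a point, for which the 2 kb that follow were taken.

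E14, an established line of mouse embryonic stem cells, was mapped at passage 12 in 2 libraries, both untreated as far as the labels say. In each, 100 ng of genomic DNA was glucosylated and cut with AbaSI, an enzyme that cuts at a set distance from glucosylated 5-hydroxymethylcytosine (5hmC), so that the ends of the fragments point to the modified base. The deposited table gives a single read count per cytosine for both libraries together, so no value below has a replicate error and no difference was tested between samples. A cytosine that is not in the table is not a measured zero, because the lowest listed count was 2 and no source used here states the rule for listing.

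The domain is a textbook case of genomic imprinting. Dlk1, Rtl1 and Dio3 are expressed from the paternal chromosome, and Meg3, Rian and Mirg, which also carry many small RNAs, from the maternal one. A control region between Dlk1 and Meg3 is methylated on the paternal chromosome, and the Meg3 promoter gains its own paternal methylation later. 5hmC is made from 5-methylcytosine by the TET enzymes, so it marks cytosines that were methylated. The table does not tell the parental chromosomes apart.

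The sequences on which the results turn are the starts of Dlk1, Meg3, Mirg and Dio3 and 4 miRNA hairpins from the stretches with the most reads. They are RefSeq sequences of the assembly GRCm38.p6, written 5′ to 3′. Each promoter runs from 250 bases before the start to 50 after it, and CG is in capitals where at least 1 of its 2 cytosines was listed. The mm9 positions come from the listed cytosines themselves. The 29 promoter and 58 hairpin sequences of the domain were matched as 1 pattern, at the distances of their own assembly, to the listed CG cytosines of chromosome 12. At the best position 218 of 221 listed CG cytosines in the pattern fell on a CG of the sequence (98.6%), against 33 of 221 at the next best. This match was added after the data had been seen, and the 6 sequences that could be placed alone all fell at the same place.
Dlk1 promoter (chr12:110690783-110691082, plus strand): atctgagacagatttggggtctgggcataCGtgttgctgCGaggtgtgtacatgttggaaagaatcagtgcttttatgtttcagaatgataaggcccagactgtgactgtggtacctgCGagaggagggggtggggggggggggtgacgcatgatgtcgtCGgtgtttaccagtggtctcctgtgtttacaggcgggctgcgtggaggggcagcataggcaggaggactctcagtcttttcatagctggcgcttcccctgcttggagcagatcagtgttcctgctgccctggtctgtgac
Meg3 promoter (chr12:110778956-110779255, plus strand): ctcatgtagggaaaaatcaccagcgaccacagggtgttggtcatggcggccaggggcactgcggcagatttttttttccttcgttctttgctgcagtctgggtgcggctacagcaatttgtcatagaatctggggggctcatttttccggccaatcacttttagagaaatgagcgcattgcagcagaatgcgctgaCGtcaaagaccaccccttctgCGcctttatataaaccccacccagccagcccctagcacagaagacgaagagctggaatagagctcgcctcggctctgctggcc
Mirg promoter (chr12:110972941-110973240, plus strand): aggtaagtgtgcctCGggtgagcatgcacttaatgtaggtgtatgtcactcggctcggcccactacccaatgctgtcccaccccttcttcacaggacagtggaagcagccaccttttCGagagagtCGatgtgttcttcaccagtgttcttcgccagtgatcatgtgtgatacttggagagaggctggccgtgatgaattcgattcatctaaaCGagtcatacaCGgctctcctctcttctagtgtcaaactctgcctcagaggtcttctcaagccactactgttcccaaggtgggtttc
Dio3 promoter (chr12:111517190-111517489, plus strand): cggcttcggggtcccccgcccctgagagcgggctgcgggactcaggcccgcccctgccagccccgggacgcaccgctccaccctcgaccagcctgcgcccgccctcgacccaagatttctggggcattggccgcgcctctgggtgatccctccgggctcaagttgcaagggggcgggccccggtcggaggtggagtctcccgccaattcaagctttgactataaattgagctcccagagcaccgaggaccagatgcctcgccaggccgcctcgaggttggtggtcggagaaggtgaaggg
Mir431 hairpin (chr12:110828657-110828747, plus strand): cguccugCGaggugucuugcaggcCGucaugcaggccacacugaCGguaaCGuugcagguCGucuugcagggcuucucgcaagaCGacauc
Mir127 hairpin (chr12:110831056-110831125, plus strand): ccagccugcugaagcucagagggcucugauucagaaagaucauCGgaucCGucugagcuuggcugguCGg
Mir434 hairpin (chr12:110832716-110832809, plus strand): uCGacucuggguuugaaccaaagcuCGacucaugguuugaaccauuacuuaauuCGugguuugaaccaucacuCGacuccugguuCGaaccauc
Mir341 hairpin (chr12:110849710-110849805, plus strand): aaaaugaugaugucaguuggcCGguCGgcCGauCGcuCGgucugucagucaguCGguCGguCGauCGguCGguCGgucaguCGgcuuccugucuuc

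Across the domain the listed cytosines carried 107132 reads, which is 126 reads per kb at 9.88 listed cytosines per kb. Adjacent autosomal windows of the same length had a median of 51.7 reads per kb, and 81.0% of 2832 such windows held fewer reads than the domain. The upstream flank of 500 kb held 92.5 reads per kb and the downstream flank 226. The domain thus lay between its flanks, at 0.79 times their joint density of reads (95% exact interval 0.79 to 0.80) and 2.21 times that of the rest of chromosome 12 (2.20 to 2.23). These and all later intervals cover counting error only, and they treat each amplified read as a molecule of its own. All densities and ranks among windows, here and below, are per kb of sequence. They were not adjusted for the number of CG or for how much of the sequence could be mapped. Whether the number of CG accounts for a high or low rank was not tested.

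In 10 kb bins the domain had a median of 1067 reads, with a range from 33 to 3717, against an autosomal median of 333. At least 2 times that median was reached by 62 of 85 bins (72.9%), against 35.2% of autosomal bins and 69% of the 100 flanking bins. A single bin, from 111030001 to 111040000 with 7 listed cytosines and 33 reads, lay at or below 0.5 times the median (1.18%). The share was 37.1% of autosomal bins, 44.1% of those of chromosome 12 and 19% of flanking bins. All of these flanking bins lay in the upstream flank, between 110360001 and 110610000. The downstream flank had none, and its lowest bin held 283 reads. In 1 kb bins 628 of 850 reached the higher mark (73.9%, autosomes 39.6%, flanks 65.9%). At or below the lower mark lay 77 (9.06%, autosomes 40.8%, flanks 23%), and 45 held no listed cytosine (5.29%, autosomes 27.3%). No run of bins without a listed cytosine reached 10 kb, and the longest distance between neighbouring listed cytosines was 7031 bases.

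**Figure D1:**
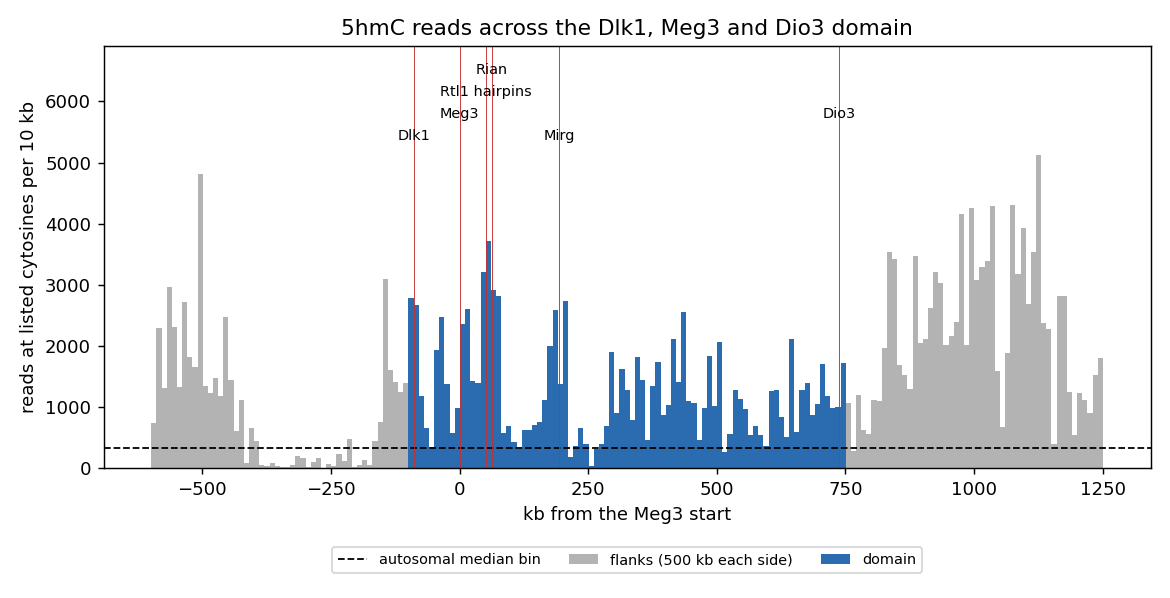
Reads at listed cytosines per 10 kb (y axis) against kb from the Meg3 start (x axis), with domain bins in blue, flanking bins in grey, the autosomal median of 333 as a dashed line and thin lines at the gene starts and at the Rtl1 hairpins. The highest domain bins, up to 3717 reads, follow the end of Meg3, and the downstream flank rises above most of the domain.

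The 4 highest 10 kb bins followed each other. The bin from 110820001 held 3210 reads, that from 110830001 held 3717, that from 110840001 held 2914 and that from 110850001 held 2813. They cover the hairpins from Mir337 to Mir136, nested in Rtl1, and the start of Rian up to Mir370. The fifth bin, from 110680001 with 2780 reads, lies just before Dlk1 at the edge of the domain.

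Of the 8399 listed cytosines, 8260 or 98.3% were in CG (95% exact interval 98.0% to 98.6%), against 98.0% in the flanks and 94.2% in the rest of chromosome 12. The 139 listed cytosines outside CG were 79 CA, 45 CT and 15 CC, and their median was 3 reads. A listed cytosine of the domain had a median of 10 reads (quartiles 6 and 16), against 11 in the flanks. Both cytosines of a CG dyad, the facing pair of a CG, were listed in 2180 of 6080 dyads (35.9%, interval 34.6% to 37.1%), and in 35.2% in the rest of the chromosome. The upstream flank had 38.0% (36.1% to 39.9%), an interval that overlaps that of the domain, and the downstream flank 46.7% (45.3% to 48.1%). Across the 2180 dyads the reads of the facing cytosines had a Spearman correlation of 0.17, and in 23.2% they differed more than 3-fold.

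Dlk1, a membrane protein of the Notch ligand family, held 171 listed cytosines and 2288 reads, or 286 reads per kb. This was 2.27 times the density of the domain (95% exact interval 2.18 to 2.36) and above 96.2% of autosomal windows of 8 kb. The reads were spread unevenly along the gene. The 1 kb bins, from the first to the eighth, held 43, 325, 81, 193, 153, 310, 490 and 693 reads. The last bin, from 110698001, had 50 listed cytosines and was among the 10 highest 1 kb bins of the domain. The printed promoter held 6 listed of 18 CG cytosines with 28 reads in all, 2 to 11 reads each, and the capitals show that all lie in the upstream part of the window.

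Promoters elsewhere on the autosomes that could be placed were the background for such counts. With 1 CG more or fewer than the 9 of Dlk1, 1870 promoters had a median of 35% of CG cytosines listed, against 33.3% for Dlk1 (95% exact interval 13.3% to 59.0%). The Dlk1 start was therefore close to the middle of its class.

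From Dlk1 to the control region there were 129 reads per kb. The highest 1 kb bin there, from 110746001, held 30 listed cytosines and 664 reads. It includes a plus-strand cytosine at 110746157 and a minus-strand cytosine at 110746180 with 142 reads each.

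The intergenic control region, the element that governs imprinting of the whole domain, held 42 listed cytosines and 397 reads. At 79.4 reads per kb it had 0.63 times the density of the domain (95% exact interval 0.57 to 0.69) but lay above the median of 29.4 in autosomal windows of 5 kb, 70.2% of which held fewer reads. The successive 1 kb bins held 45, 155, 164, 13 and 20 reads at 7, 20, 10, 3 and 2 cytosines. Most reads thus lay in the bins from 110765001 and 110766001, and the bin just before the region, from 110763001, had no listed cytosine.

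Within the control region the facing cytosines were seldom both listed. This was so for 1 of 37 dyads (2.70%, 95% exact interval 0.0684% to 14.2%), whose upper bound is under the domain's 34.6%. In the Dio3 interval it was so for 6 of 26 (23.1%, 8.97% to 43.6%). A listed cytosine of the control region had a median of 7 reads, against 10 in the domain. The domain's own share fell to 22.8% with a minimum of 10 reads. Whether the lower counts of the control region bear on its share was not tested. The class that the authors write as 2CG, which the sources used here do not define, took in 16 of its 42 cytosines (38.1%, interval 23.6% to 54.4%) and 63.5% of its reads, compared with 9.37% of cytosines in the domain (8.76% to 10.01%). The Dio3 interval had a like share, 11 of 32 (34.4%, 18.6% to 53.2%), Dlk1 had 19.3% and the stretch from Mir431 to Mir434 17.9%. The highest value was 48 reads at 110766585. On the other strand 35 reads were listed at 110766607 and 22 at 110766609. The pairs at 110765707 and 110765730, with 24 reads each, and at 110766814 and 110766836, with 12 each, had equal counts. The 4 listed cytosines outside CG had 2 to 4 reads. These contrasts were picked after the values had been seen.

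**Figure D2:**
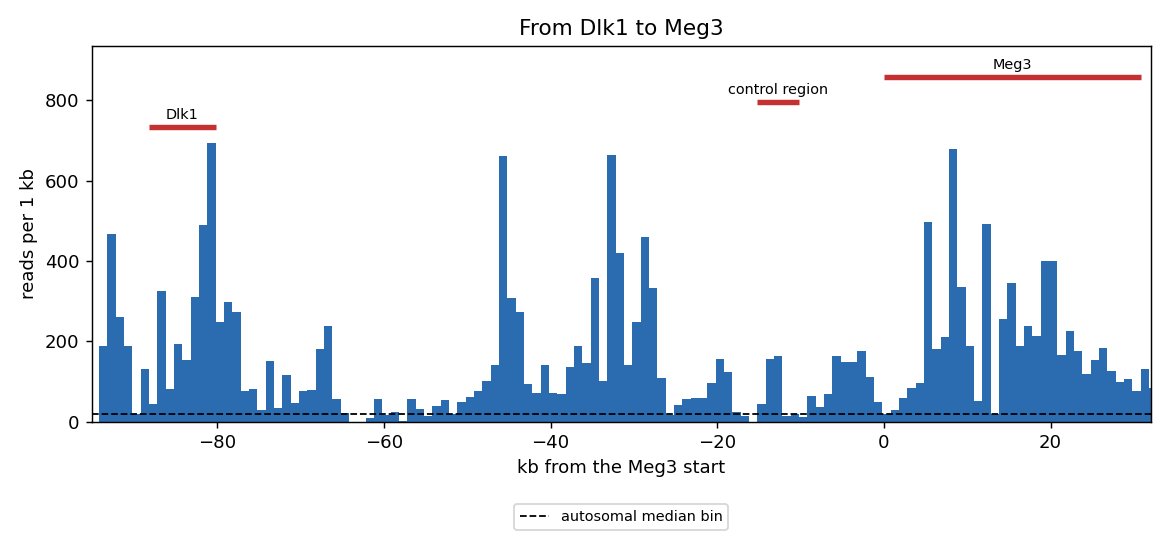
Reads per 1 kb (y axis) against kb from the Meg3 start (x axis), with the intervals of Dlk1, the control region and Meg3 as red bars and the autosomal median of 18 as a dashed line. Reads rise towards the end of Dlk1 to 693, are at most 164 in the control region and are low at the start of Meg3.

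Meg3, a maternally expressed long noncoding RNA, held 464 listed cytosines and 6402 reads, or 208 reads per kb. This was 1.65 times the density of the domain (95% exact interval 1.61 to 1.69) and above 92.5% of autosomal windows of 30.8 kb. The start of the gene stood apart from its body. The 3 bins from 110776001 held 177, 110 and 48 reads, the bin of the start held 18 at 4 cytosines, and the next 3 held 29, 60 and 85. The bin from 110787001, within the gene, held 679.

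In the printed Meg3 promoter 2 of 26 CG cytosines were listed, with 10 reads in all (7.69%, 95% exact interval 0.946% to 25.1%). The median was 3.85% over 1185 autosomal promoters with 12 to 14 CG, 60.6% of which had a lower share. They lie on opposite strands, at bases 197 and 219 of the sequence, and had 5 reads each. Whether the same reads were counted at both was not tested. Of the listed cytosines, 1, at base 197, falls in TGACGTCA, the cAMP response element, at bases 194 to 201. That motif, searched on both strands, is in 1.79% of 32851 promoters. TGCCGC, the hexamer bound by ZFP57 when methylated, occurs on the minus strand at bases 61 to 66 and is in 11.6% of promoters, and no cytosine was listed within it. Neither run of letters is in the Dlk1, Rian, Mirg or Dio3 promoter window.

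Rtl1, a retrotransposon-derived gene that acts in the placenta, has 15 miRNA genes within its span in the RefSeq table. Mir431, Mir433, Mir127 and Mir434 among them are transcribed antisense to its coding sequence, from the maternal chromosome. From the start of Mir431 to the end of Mir434, chr12:110828657-110832809, there were 151 listed cytosines and 3391 reads. That is 817 reads per kb and 36.4 listed cytosines per kb. Of 581529 autosomal windows of this length, 99.95% held fewer reads and 99.95% held fewer listed cytosines. The windows were not matched by number of CG, so this rank does not measure reads per CG. Per listed cytosine the mean was 22.5 reads (domain 12.8), but the median was 12 (domain 10). The pairs of cytosines named in the next paragraph hold a large part of the reads. Whether their reads were counted at both cytosines was not tested. Of its dyads, 53 of 97 were listed on both strands (54.6%, 95% exact interval 44.2% to 64.8%), above the interval of the domain. The other hairpins within Rtl1 lie on either side of this stretch, where the density was lower. From the end of Meg3 to Mir431 there were 199 reads per kb, with 91.2% of windows lower. From Mir434 to the Rian start there were 151, with 84.6% lower.

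The 1 kb bins from 110828001 held 909, 264, 1352, 707 and 495 reads, and the bin with 1352 was the highest of the domain. It contains the domain's highest cytosines, 110830764 (plus strand) and 110830786 (minus strand) with 299 reads each, which lie between the Mir433 and Mir127 hairpins. The pair at 110830343 and 110830365 with 198 and 190 reads lies there as well. A further pair, 110828759 and 110828780 with 172 and 160 reads, starts 12 bases after the end of the Mir431 hairpin.

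The hairpins of this stretch had from 50% to 70% of their CG cytosines listed. Mir431 had 11 of 16 with 190 reads, Mir433 4 of 8, Mir127 4 of 6 and Mir434 7 of 10. For Mir431 (68.8%), 32 hairpins outside the domain with 6 to 10 CG had a median of 0 and 90.6% of them a lower share. Some of these CG lie in the mature miRNAs, among them the seed of miR-127-3p. The mature arms whose seed holds a listed CG at Mir431, Mir127, Mir434 and, described next, Mir341 are represented here by 1 arm each. The seed, bases 2 to 8, is in capitals, and none of the 4 is shared with another placed miRNA of the domain.
mmu-miR-431-3p: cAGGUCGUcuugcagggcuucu
mmu-miR-127-3p: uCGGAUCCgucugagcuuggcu
mmu-miR-434-5p: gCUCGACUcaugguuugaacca
mmu-miR-341-3p: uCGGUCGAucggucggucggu

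Rian, a maternally expressed noncoding RNA that hosts box C/D snoRNAs, has no CG in its promoter window. From its start to the end of Mir370 there were 298 listed cytosines and 5018 reads, or 349 reads per kb, above 98.6% of windows of that length. Here 104 of 194 dyads were listed on both strands (53.6%, 95% exact interval 46.3% to 60.8%). Mir341, a hairpin of repeated CG units, stood out: 21 of its 24 CG cytosines were listed, with 316 reads, the most of any hairpin of the domain. Some of these cytosines form pairs on opposite strands with equal counts. Those at bases 34 and 55 had 21 reads each, those at 38 and 59 had 9 each and those at 54 and 75 had 29 each. Whether the same reads were counted at both cytosines of a pair was not tested. All 7 hairpins outside the domain with 10 to 14 CG had no listed CG cytosine. Mir1188 and Mir370 each had 4 of 4 listed, with 161 reads at the former.

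Past Mir370 the density fell to 62.9 reads per kb up to Mir379, over 90.7 kb, with 59.8% of windows lower. The RefSeq table places 19 snoRNA genes and 1 miRNA gene in between. How many reads could be mapped to repeated sequence there is not analysed here. In this stretch 118 of 400 dyads were listed on both strands (29.5%, 25.1% to 34.2%).

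The large miRNA cluster from Mir379 to Mir410, which ends within Mirg, held 511 listed cytosines and 7299 reads, or 210 reads per kb. It has 38 miRNA genes, and in the hairpins with a CG the listed share of CG cytosines ranged from 0, as at Mir410, to 75%, as at Mir381 and Mir495. Mir411 had 7 of 10, Mir323 9 of 16 and Mir409 5 of 10. The pair at 110956288 and 110956311, with 223 reads each, lies between Mir543 and Mir495. Mirg, the maternally expressed host RNA of the end of the cluster, had 177 reads per kb from its start to Mir410. In the printed Mirg promoter 6 of 20 CG cytosines were listed with 49 reads (30%), against a median of 27.3% over 1580 promoters of 9 to 11 CG. That window overlaps the Mir668 and Mir485 hairpins. Past Mir410, Mir3072 also lies within Mirg in the RefSeq table, and the stretch up to its end had 193 reads per kb. The 1 kb bin from 110986001, which holds Mir3072, had 743 reads, the fifth highest.

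**Figure D3:**
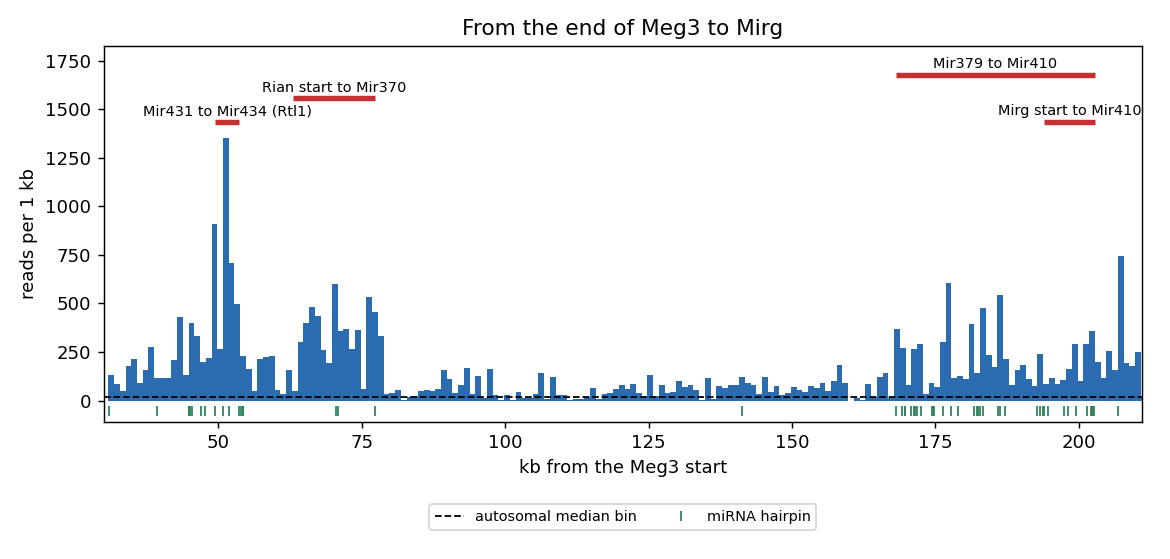
Reads per 1 kb (y axis) against kb from the Meg3 start (x axis), from the end of Meg3 to Mirg, with miRNA hairpins as green ticks, named intervals as red bars and the autosomal median of 18 as a dashed line. Bins reach 1352 reads among the hairpins nested in Rtl1, and the density is 349 reads per kb from the Rian start to Mir370 and 62.9 from there to Mir379.

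Over the domain, 148 of 328 CG cytosines in hairpins were listed (45.1%, 95% exact interval 39.6% to 50.7%). At least 1 was listed in 46 of 53 hairpins with a CG (86.8%), against 71.0% of 428 placed hairpins outside the domain. By number of CG, hairpins with at least 1 listed made up 80% in the domain and 73.1% outside with 1 or 2 CG, 100% and 80.4% with 3 to 5, and 100% and 40% with 6 to 12. None of these differences was tested. The share of CG cytosines listed gives another view. With 1 or 2 CG, 47.9% of CG cytosines were listed in the domain and 49.6% outside. With 3 to 5 CG the shares were 43.3% and 42.6%. With 6 to 12 CG, 49 of 80 were listed in 5 hairpins of the domain (61.2%) and 78 of 524 in 35 hairpins outside (14.9%), 21 of which had none. Mir1247, next to Dio3, has 14 CG and none listed.

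From Mir3072 to Dio3, over 531 of the 850 kb of the domain, there were 106 reads per kb, with 73.4% of windows lower. No member starts there. Of the 10 highest 1 kb bins 3 do, which is fewer than its share of the domain's length. They start at 111489001, 111284001 and 111098001 and held 822, 774 and 721 reads.

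Dio3, the deiodinase that inactivates thyroid hormone, held 32 listed cytosines and 296 reads in 2 kb, or 148 reads per kb. This was 1.17 times the density of the domain (95% exact interval 1.04 to 1.32), but 0.79 times when the interval was widened by 1 kb on each side. The start itself was bare. Around it the 1 kb bins from 111515001 held 209, 3, 54 and 242 reads. No cytosine was listed over 1509 bases, between 111516095 and 111517605. This gap holds the printed Dio3 promoter, with 0 of 50 CG cytosines listed, and that of Dio3os, the noncoding RNA on the opposite strand, with 0 of 106.

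Such bare starts were common among CG-rich promoters. Of 1061 autosomal promoters with 24 to 26 CG, 76.9% had no listed CG cytosine, and of 247 with 48 to 58 CG, 92.7% had none. Over the 4358 placed autosomal promoters outside the domain with 25 or more CG, the share with none was 84.1%. Promoters near few listed cytosines were less likely to be placed, so these shares may be too low. The Dio3 start was therefore like most of its class. The gap was the 24th longest of 8398 in the domain and longer than 98.0% of autosomal ones. A chosen position falls more often in a long gap than in a short one, so this rank does not measure how unusual the start was. Of autosomal 1 kb bins, 27.3% held no listed cytosine.

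**Figure D4:**
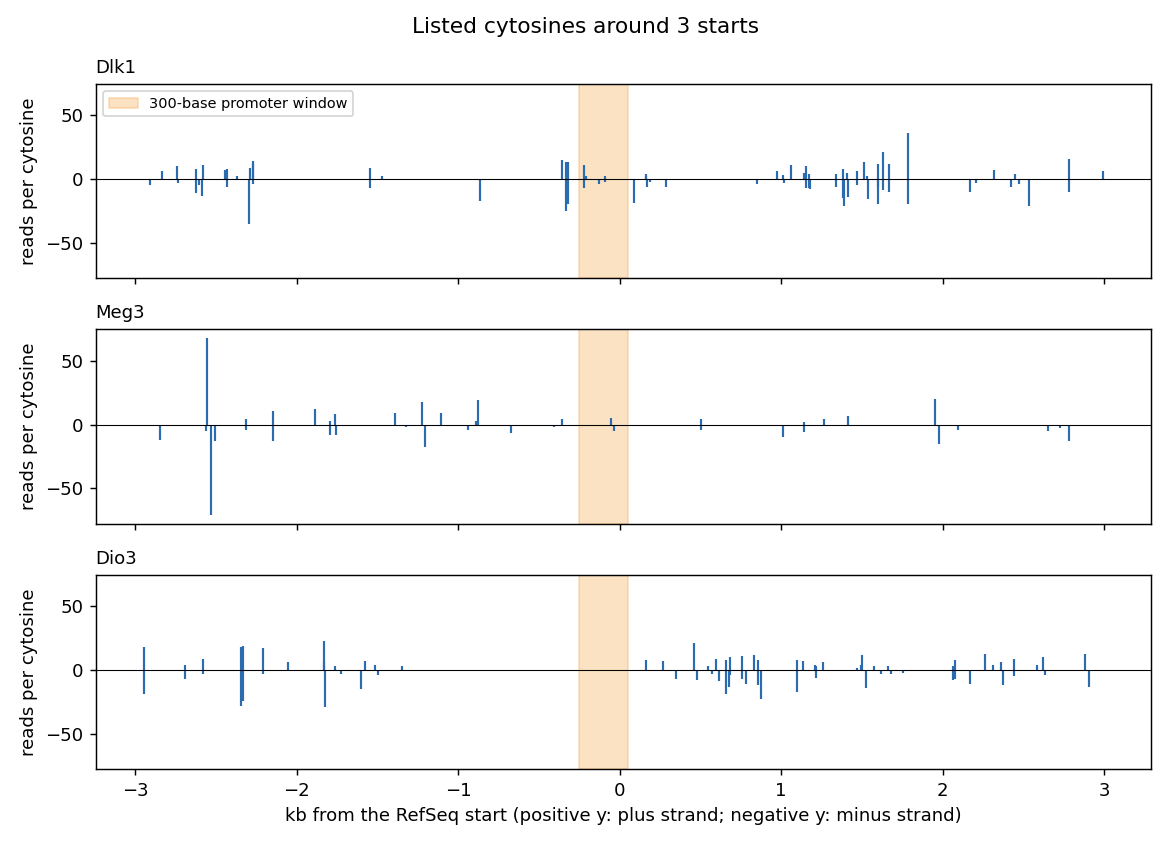
Reads per listed cytosine (y axis, plus strand upward and minus strand downward) within 3 kb of the RefSeq starts of Dlk1, Meg3 and Dio3 (x axis, kb), with the 300-base promoter window shaded. The window holds 6 listed CG cytosines at Dlk1, 2 at Meg3 and none at Dio3.

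**Figure D5:**
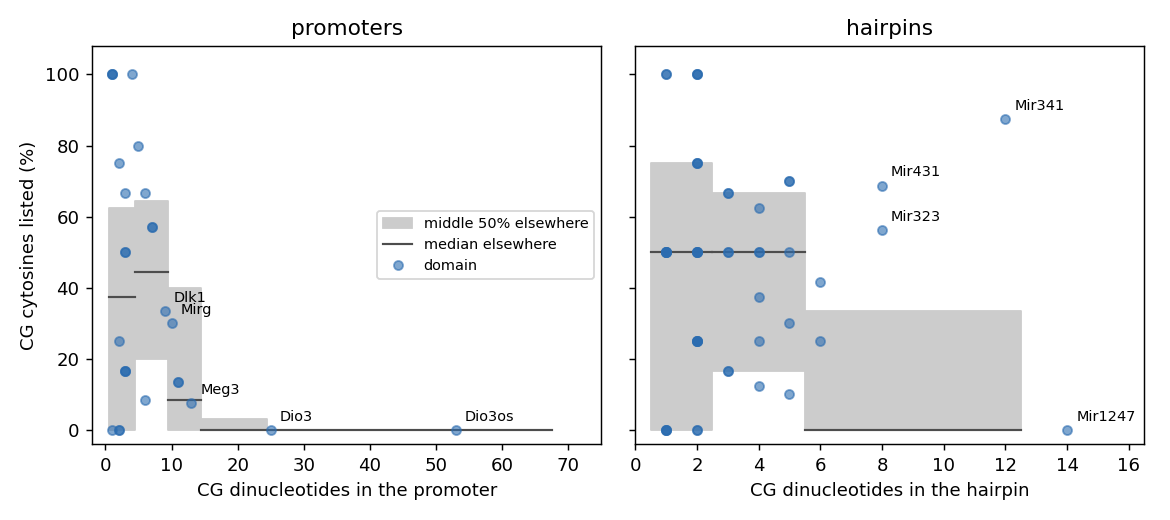
Share of CG cytosines listed (y axis, %) against the number of CG (x axis) in the promoters (left) and hairpins (right) of the domain, as blue points. Grey bands and lines are the middle 50% and the median of autosomal promoters, and of hairpins outside the domain, by CG class. Among the labelled points, Mir341 (87.5%), Mir431 (68.8%) and Mir323 (56.25%) lie above the band, and Dlk1, Meg3, Mirg and Dio3 within theirs. Unlabelled points lie on both sides of the bands, such as Mir770 (41.7%) above and Mir1197 (10%) below.

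Of the domain's 20 highest cytosines, 19 belong to a pair on opposite strands 21 to 23 bases apart with equal or nearly equal reads. Such pairs were not counted among the other cytosines of the domain or outside it. Whether the reads of such a pair were counted at both cytosines was not tested. The 83 highest cytosines, the top 1%, held 7.04% of the domain's reads.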

How the data were processed

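AbaSI sequencing of E14 embryonic stem cell DNA gave 2 libraries (16 PCR cycles, Illumina HiSeq), read with CASAVA 1.8.2 and aligned with Bowtie to mm9, per the submitters' processing notes. The deposited table holds the authors' raw read counts per cytosine with its strand, dinucleotide and class, both libraries in 1 column, so the depth per library is unknown here and the precision is that of the counts alone.

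Reads and listed cytosines were summed per interval and per bin (1 and 10 kb) and set against adjacent windows of equal length on the 19 autosomes and against flanks of 500 kb. Shares have exact Clopper-Pearson intervals of 95%. Bins were called at 2 and 0.5 times the autosomal median. RefSeq promoters and hairpins were placed by their CG patterns, and for the background in blocks of 20 neighbours (1249 of 1626 blocks placed, giving 24205 promoters and 695 hairpins). A background block was kept only if at least 5 listed CG cytosines fell on its CG, so blocks with few listed cytosines were left out. Scripts were tested on simulated data. Python 3.11.15, numpy 2.4.6, pandas 2.3.3 and scipy 1.17.1 were used.

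Named were the 6 members, the control region, the intervals between, the highest cytosines and bins and the placed hairpins. The members and lists were chosen with earlier results of these data known. Alternatives were a minimum of 5 or 10 reads, leaving out the 0.1% of cytosines with the most reads, weighting the classes 2CG and 2CH by 0.5, counting each cytosine once, CG alone, edges moved by 1 kb, flanks of 1 Mb and the median of chromosome 12.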

Additional observations from a re-analysis of the deposited data

How the results depend on the processing

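Of 67 values under alternatives, 39 stayed within the counting interval, or for counts within 1.5 times, 26 moved and 2 turned direction. The cause was not tested. The Dio3 interval turned from 1.17 times the density of the domain to 0.889 with a minimum of 10 reads and to 0.791 with edges moved by 1 kb, and rose to 1.62 with each cytosine counted once. A minimum of 5 reads gave 0.781 (reads) and 0.877 (cytosines) for the domain against its flanks, 99.4% CG and 32.2% of dyads on both strands. A minimum of 10 reads gave 0.743, 0.806, 99.8% and 22.8%, 2.25 against chromosome 12, 0.490 for the control region, 1.75 for Meg3, 2.39 for Dlk1 and 2 low bins in place of 1. Counting each cytosine once gave 0.911 against the flanks, 2.19 against chromosome 12, 0.850 for the control region, 1.52 for Meg3 and 2.16 for Dlk1. The control region was at 0.464 with the 2CG weight of 0.5, and edges moved by 1 kb gave 0.464 for it, 1.59 for Meg3 and 2.12 for Dlk1. CG alone gave 2.29 against chromosome 12, and flanks of 1 Mb gave 0.762 (reads) and 0.868 (cytosines). No paired analysis was possible because the deposited column pools both libraries, and leaving out a replicate was not run for the same reason.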
